A study of Mus musculus with 20 samples.

Results

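The IL-6 family cytokines and the gp130 signaling chain were followed at the RNA level in bone marrow-derived macrophages (BMDMs). The set holds the ligand genes *Il6*, *Lif*, *Osm* and *Clcf1*, the receptor genes *Il6ra* and *Il6st*, the transcription factor gene *Stat3* and the inhibitor gene *Socs3*. They were chosen by gene symbol, and all 8 were found among the 21963 gene entries of the count table. Each of the 8 passed the filter on low counts and was tested, as were 11707 genes in all.

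Cytokines of this family signal through gp130, the receptor chain encoded by *Il6st*, which they share. IL-6 first binds the IL-6 receptor encoded by *Il6ra*, while LIF, OSM and CLCF1 bring in other partner chains, and the assembled receptors activate JAK kinases that phosphorylate STAT3. STAT3 drives *Socs3*, whose product binds gp130 and its kinases and shuts the signal off, and macrophages are a well known source of IL-6 during responses to microbial products.

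RNA was counted in 20 libraries from mice aged 15 to 25 weeks. WT macrophages were left untreated (n = 4), stimulated with zymosan, a yeast cell wall preparation, for 3 h at 2 particles per cell (n = 5), or loaded with BAPTA-AM at 10 µM and given the same zymosan (n = 4). BAPTA-AM is a cell-permeant Ca2+ chelator. The authors give both doses in their qPCR methods, and their RNA sequencing methods and the sample titles give neither. Macrophages with deletion of *Mcu*, the gene of the mitochondrial Ca2+ uniporter channel, were left untreated (n = 4) or given the same zymosan (n = 3). The deletion comes from a floxed *Mcu* allele and a Cre recombinase driven by *Cx3cr1*, so it depends on how far that promoter was active in each culture. WT and *Mcu*-/- macrophages loaded with BAPTA-AM but given no zymosan, and loaded *Mcu*-/- macrophages with zymosan, were not analysed here. The comparisons ask which members zymosan changes, and whether loss of mitochondrial Ca2+ uptake or chelation of Ca2+ changes their levels.

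Total counts per library ran from 14.4 to 19.3 M in WT untreated, 20.3 to 22.4 M in WT zymosan and 17.4 to 21.7 M with BAPTA-AM and zymosan. They were 21.9 to 22.8 M in *Mcu*-/- untreated and 20.1 to 24.0 M in *Mcu*-/- zymosan libraries. The labels call the libraries biological replicates without saying whether they came from separate mice or cultures, so p-values measure the spread between these samples. Normalized counts are counts scaled with edgeR's TMM factors to a library of 20.6 M, given per library or as mean ± SD. A gene was called where its edgeR adjusted p, corrected over all genes tested, was under 0.05.

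*Mcu* itself had 172, 134, 158 and 141 normalized counts in the 4 WT untreated libraries, 149, 143, 131, 135 and 125.7 with zymosan, and 197, 144, 153 and 161 with zymosan and BAPTA-AM. In *Mcu*-/- macrophages it had 58.7, 77.7, 54.2 and 83.4 untreated and 75.3, 74.6 and 82.0 with zymosan. No *Mcu*-/- library reached a WT library, and RNA of the gene was lower but still counted in all of them. The part of the gene that was deleted is not given in the sources used here, so these counts do not measure how many cells kept it. *Cx3cr1*, which drives the Cre, averaged 392 normalized counts in WT untreated and 208 in *Mcu*-/- untreated macrophages, and 10.1 and 41.3 with zymosan.

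Untreated *Mcu*-/- replicate 4 stood apart from replicates 1 to 3. The mean chi-square per gene was 212 to 220 in its 3 replicate pairs and 1.60 to 6.33 in the 28 other pairs within groups. The biological coefficient of variation, which all comparisons share, was 12.4% with it and 3.56% without it. Among the members its ratio to the mean of replicates 1 to 3 was 2.81 for *Il6st*, 3.30 for *Lif*, 1.75 for *Osm*, 1.40 for *Socs3* and 0.428 for *Clcf1*. *Il6* (0.926), *Il6ra* (0.807) and *Stat3* (0.839) lay closer to the mean. Its *Il6* (12.3 normalized counts) and *Socs3* (270) were far below those of every zymosan library, while its *Il6st*, *Lyz2* and *Col1a1* levels were nearer to those of the *Mcu*-/- zymosan libraries than to replicates 1 to 3. Whether its label holds in every respect was not tested, and this bears on each untreated *Mcu*-/- value that includes it. Whether the *Mcu*-/- zymosan libraries differ from untreated replicates 1 to 3 in more than zymosan was not tested either. That bears on each comparison that holds the *Mcu*-/- zymosan libraries, and leaving out replicate 4 does not change it. The members' values in comparisons that include this library are given with and without it.

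All 8 macrophage markers, *Csf1r*, *Adgre1*, *Cd68*, *Itgam*, *Fcgr1*, *Mertk*, *Lyz2* and *Cd14*, were counted in every library, with 571 counts or more for each gene. Their summed normalized count was 275380 to 337990 in the WT libraries, 297240 to 304660 in untreated *Mcu*-/- replicates 1 to 3, 176400 in replicate 4 and 214590 to 221990 in *Mcu*-/- zymosan. The most abundant of them, *Lyz2*, had 58202 normalized counts in replicate 4 and averaged 66844 in *Mcu*-/- zymosan against 168708 in WT zymosan. The lower sum in *Mcu*-/- zymosan came from *Lyz2*, *Adgre1* and *Itgam*, the 3 markers with a lower mean there than in WT zymosan. The other 5 had a higher mean, among them *Cd68* at 23882 against 6364 and *Fcgr1* at 11808 against 4364. Of 7 listed fibroblast or stromal markers, 5 had a higher mean in *Mcu*-/- than in WT zymosan, and *Pdgfra* and *Lum* had a lower one. Of these 7 genes, 4 or 5 had more than 3 counts in each *Mcu*-/- zymosan library, and their sum was 943 to 1107 there, 595 in replicate 4, 27.1 to 60.8 in untreated *Mcu*-/- replicates 1 to 3 and 116 to 158 in WT zymosan. *Col1a1* or *Col1a2* led the list in each *Mcu*-/- zymosan library and in replicate 4, and *Col3a1* in untreated *Mcu*-/- replicates 2 and 3, while *Lum* was at 0 in every *Mcu*-/- library and *Pdgfra* and *Dcn* had at most 5 and 8 counts in any library.

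Of 8 neutrophil markers, 1 or 2 had more than 3 counts in each *Mcu*-/- zymosan library and none had in replicate 4. Their sum was 77.9 to 118 in WT zymosan, led by *S100a9*, 11.3 to 15.8 in *Mcu*-/- zymosan and 3.27 in replicate 4, and *Ly6g* had at most 1 count in any library. Of 6 dendritic cell markers the sum was 16.1 to 27.1 in untreated libraries, 188 to 207 in WT zymosan, 113 to 151 with BAPTA-AM and 221 to 246 in *Mcu*-/- zymosan. It was led by *Xcr1* in each zymosan library, with *Cd209a* at 0 in all libraries and *Flt3* and *Siglech* at no more than 3 and 2 counts. Lymphocyte markers summed to 23.5 to 53.1, with *Ncr1* at 0 and *Cd3e* at no more than 1 count, and mast cell or basophil markers to no more than 11.7, with *Fcer1a* at 0. The part of these markers in the results was not tested. In bulk RNA, fewer cells of a type and less RNA per cell cannot be told apart.

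In WT macrophages zymosan raised 7 of the 8 members and lowered *Il6ra*, with 69.1% of all tested genes called in this comparison. The median log2 fold change was 2.48 over the members and −0.04 over all genes tested. Among the ligands, *Il6* had 0.879, 2.62, 7.06 and 6.94 normalized counts in the 4 untreated libraries and 4680, 4501, 4631, 4821 and 4712 in the 5 zymosan libraries. The untreated libraries held 1 to 8 counts of *Il6* each, so the groups were far apart in every library. The pooled ratio was 1109 (exact 95% counting interval 702 to 1872, from 21004 and 18 counts), and the interval covers counting error only. *Lif*, the ligand that binds gp130 together with LIFR, was at 1 count in each of the 4 untreated libraries, passed the filter through the zymosan groups alone, and had 74.0, 76.7, 95.7, 48.6 and 72.0 normalized counts with zymosan. Its pooled ratio was 78.9 (exact 95% counting interval 30.5 to 291, from 332 and 4 counts). As the filter admits *Lif* only where it is high, its ratios to untreated macrophages are descriptions with no test, and counts of members called against untreated macrophages include it.

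*Osm*, which encodes oncostatin M, was already present in untreated WT macrophages, with 87.9, 102, 73.3 and 67.1 normalized counts, and had 402, 336, 416, 351 and 328 with zymosan. The log2 fold change was 2.14 (SE 0.18, adjusted p 3.4e-09 by edgeR). *Clcf1*, which encodes a cardiotrophin-like cytokine, had 15.004 to 27.1 normalized counts untreated and 119 to 190 with zymosan, and its log2 fold change was 2.82 (SE 0.22, adjusted p 1.11e-09 by edgeR). For all 4 ligands every zymosan library lay above every untreated one.

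The receptor chains moved in opposite directions. *Il6ra*, which gives IL-6 its own receptor, had 2244, 2497, 2454 and 2322 normalized counts untreated and 877, 941, 1002, 784 and 886 with zymosan. It fell by 1.41 in log2 (SE 0.08, adjusted p 2.09e-11 by edgeR), with every zymosan library below every untreated library. *Il6st*, the shared chain, had 362, 338, 334 and 320 normalized counts untreated and 554, 523, 564, 524 and 510 with zymosan. It rose by 0.66 (SE 0.23, adjusted p 0.0176 by edgeR), again with no overlap.

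*Stat3* had 3313, 3487, 3471 and 3198 normalized counts untreated and 9693, 9435, 9526, 9545 and 9006 with zymosan, a rise of 1.49 in log2 (SE 0.05, adjusted p 7.7e-15 by edgeR). *Socs3* had 201, 192, 217 and 197 untreated and 20922, 20156, 20833, 19683 and 20249 with zymosan. The inhibitor gene thus stood far above its untreated level in each of the 5 libraries, with a log2 fold change of 6.66 (SE 0.10, adjusted p 4.78e-20 by edgeR). For each member other than *Lif* an exact permutation test, two-sided, returned p = 0.00794, the smallest value possible with 5 against 4 libraries.

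**Figure D1:**
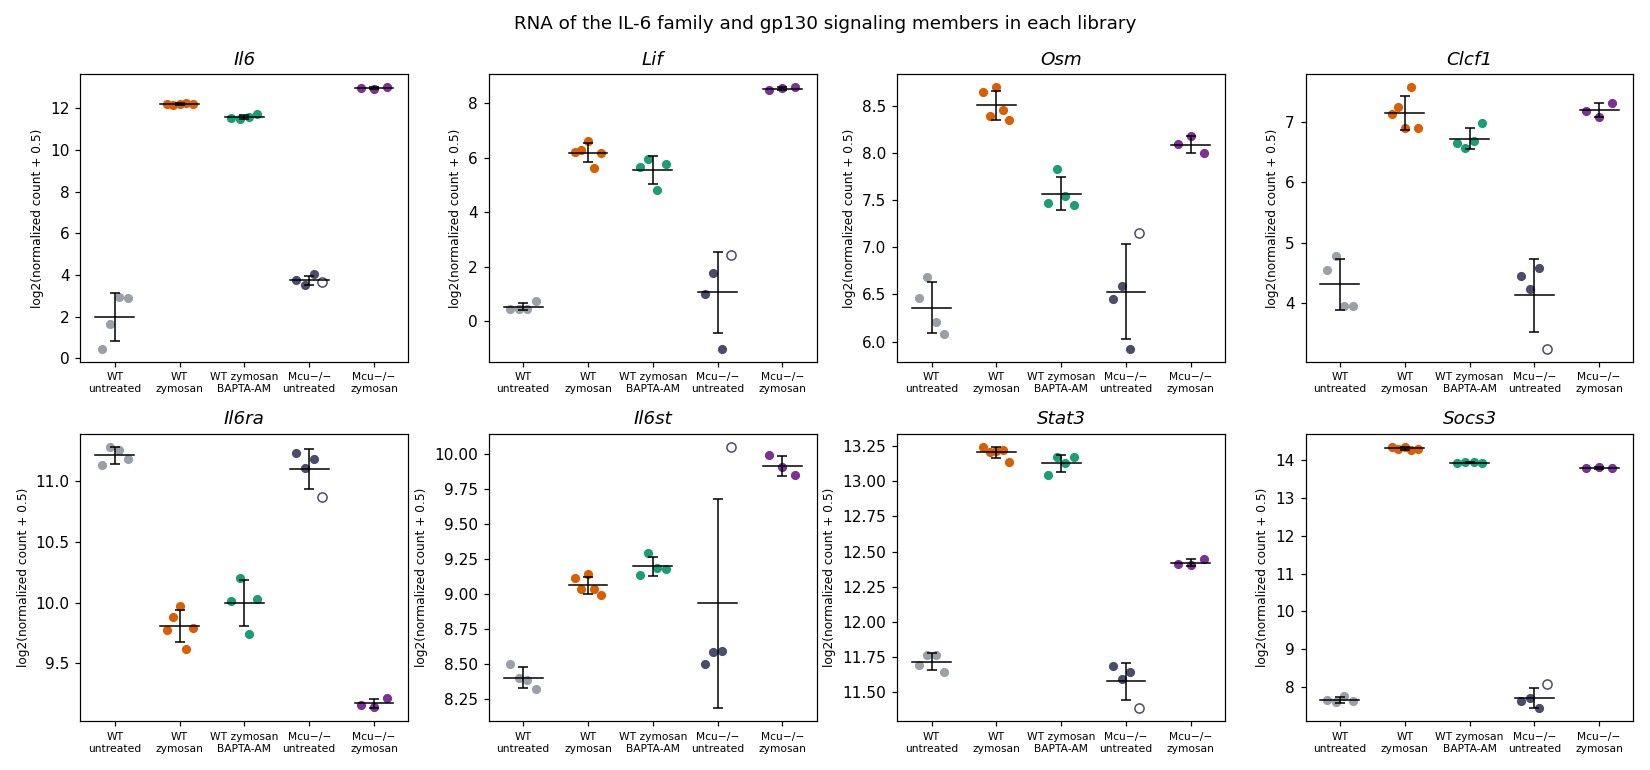
Normalized counts of the 8 members in each of the 20 libraries, as log2(normalized count + 0.5) on the vertical axis, by group on the horizontal axis. Points are libraries, horizontal lines are group means and bars are SD on the log2 scale, and the open point is untreated *Mcu*-/- replicate 4, which for *Il6st* (1060 normalized counts) lies far above replicates 1 to 3 (362 to 386).

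Levels of different genes were compared as normalized counts per kb of exon. In WT untreated macrophages the order was *Stat3* (353 ± 14.4 per kb), *Il6ra* (275 ± 13.5), *Socs3* (69.8 ± 3.74), *Osm* (36.4 ± 6.94), *Il6st* (30.5 ± 1.56), *Clcf1* (5.25 ± 1.58), *Il6* (1.80 ± 1.28) and *Lif* (0.218 ± 0.03). *Osm* and *Il6st* lay within their spread of each other. With zymosan the order in WT was *Socs3* (7045 ± 177 per kb), *Il6* (1923 ± 48.1), *Stat3* (991 ± 27.3), *Osm* (161 ± 17.6), *Il6ra* (104 ± 9.40), *Il6st* (48.2 ± 2.06), *Clcf1* (37.8 ± 7.69) and *Lif* (16.9 ± 3.86), and the libraries of *Il6st* and *Clcf1* overlapped. *Il6ra* RNA was above *Il6st* RNA per kb in both WT groups. In *Mcu*-/- zymosan macrophages the order of the receptor chains was the other way round, with *Il6st* at 87.0 ± 4.43 and *Il6ra* at 66.7 ± 1.85 per kb. *Lif*, last of the 8 in WT zymosan, reached 84.6 ± 2.84 per kb there, within its spread of *Il6st*. These orders describe RNA levels and were not tested.

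With zymosan, loss of *Mcu* went with higher *Il6*, *Lif* and *Il6st* and lower *Osm*, *Il6ra*, *Stat3* and *Socs3*. Thus 7 of the 8 members were called, beside 62.1% of all genes tested, and the same number was called without untreated *Mcu*-/- replicate 4, beside 70.1%. The share of members is read against a background in which most genes differ. The median log2 fold change was −0.20 over the members and 0.02 over all genes. The *Mcu*-/- zymosan libraries are named by their columns 3, 4 and 5. For every called member the 3 *Mcu*-/- libraries lay wholly above or wholly below the 5 WT libraries, and an exact permutation test, two-sided, returned p = 0.0179, the smallest value possible with 3 against 5 libraries. How many of all genes tested lay without overlap was not counted, so in every comparison a lack of overlap describes single genes.

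Among the ligands the widest gap was in *Lif*, with 354, 372 and 378 normalized counts in *Mcu*-/- against 48.6 to 95.7 in WT macrophages. The log2 fold change was 2.32 (SE 0.22, adjusted p 9.86e-08 by edgeR). *Il6* had 7930, 7822 and 8203 normalized counts, above the WT range of 4501 to 4821, so that its log2 fold change of 0.77 (SE 0.09) was smaller than that of *Lif*. *Osm* had 273, 290 and 255 normalized counts against 328 to 416 in WT, and here the *Mcu*-/- libraries were the lower ones. Its log2 fold change of −0.43 (SE 0.18) passed narrowly, with an edgeR adjusted p of 0.0475. Over its alternatives the adjusted p ran from 7.88e-05 to 0.142, and the call was lost without the filter on low counts (0.0511), without each of the 3 *Mcu*-/- zymosan libraries in turn (0.0702 to 0.142) and without WT zymosan replicate 1 (0.0876), 3 (0.0978) or 4 (0.0581). It was also lost, at 0.051 to 0.0558, without WT untreated replicate 1 or 3, replicate 1, 3 or 4 with BAPTA-AM, or untreated *Mcu*-/- replicate 1 or 2. *Clcf1* had 144, 135 and 158 normalized counts, inside the WT range of 119 to 190 (log2 fold change 0.02, SE 0.20, adjusted p 0.929 by edgeR). The 4 ligand genes therefore did not move together.

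*Il6st* had 1018, 958 and 921 normalized counts in *Mcu*-/- zymosan libraries, above the WT range of 510 to 564, a rise of 0.85 in log2 (SE 0.24, adjusted p 0.00507 by edgeR). The level in the 3 libraries was close to the 1060 of untreated *Mcu*-/- replicate 4, the library that also shares their higher *Col1a1* and lower *Lyz2*. *Il6ra* had 572, 563 and 594 normalized counts against 784 to 1002 in WT. It fell by 0.64 (SE 0.10, adjusted p 2.54e-05 by edgeR). The summed levels of the fibroblast or stromal and neutrophil markers given above differ between the same groups, and their part in these differences was not tested.

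*Stat3* had 5438, 5418 and 5593 normalized counts in *Mcu*-/- zymosan libraries against 9006 to 9693 in WT, with a log2 fold change of −0.78 (SE 0.06, adjusted p 4.12e-09 by edgeR). *Socs3* had 14041, 14366 and 14059 against 19683 to 20922. It fell by 0.52 (SE 0.08, adjusted p 3.65e-05 by edgeR). The transducer and the inhibitor were thus lower in the same libraries in which *Il6* and *Lif* were higher. STAT3 protein and its phosphorylation were not analysed here.

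BAPTA-AM loading was compared with the same WT zymosan libraries, so this comparison and the one with *Mcu*-/- share 5 libraries. It lowered *Il6*, *Osm* and *Socs3*, which makes 3 of the 8 members called, all lower, beside 12.8% of all genes tested. Without untreated *Mcu*-/- replicate 4, which is not in either group but adds to the shared spread, all 8 were called, 6 lower and 2 higher, beside 31.8%. The median log2 fold change was −0.41 over the members and 0.00 over all genes.

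*Il6* had 2989, 2866, 3068 and 3322 normalized counts with BAPTA-AM, all below the 5 unloaded libraries. It fell by 0.61 in log2 (SE 0.08, adjusted p 6.99e-05 by edgeR). *Osm* had 177, 227, 186 and 174 normalized counts against 328 to 416 unloaded, and fell by 0.94 (SE 0.17, adjusted p 0.000933 by edgeR). *Socs3* had 15424, 15790, 15747 and 15506 against 19683 to 20922, and fell by 0.38 (SE 0.08, adjusted p 0.00201 by edgeR). *Osm*, called by a narrow margin with loss of *Mcu*, was thus the member with the largest called fall here. For these 3 members no loaded library overlapped the unloaded ones, and an exact permutation test, two-sided, returned p = 0.00794, the smallest value possible with 4 against 5 libraries. Marker sums were also lower in the loaded libraries, with 295260 to 300180 against 331530 to 337990 for the macrophage list, 93.0 to 114 against 116 to 158 for the fibroblast or stromal list, 56.3 to 72.6 against 77.9 to 118 for the neutrophil list and 113 to 151 against 188 to 207 for the dendritic cell list. Their part in these differences was not tested.

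The other members had smaller differences or overlapping libraries. *Lif* had 49.5, 61.9, 27.5 and 53.2 normalized counts against 48.6 to 95.7 unloaded, with a log2 fold change of −0.60 and an edgeR adjusted p of 0.106. Without untreated *Mcu*-/- replicate 4 the adjusted p of *Lif* was 0.00828, the lowest of its alternatives, whose highest was 0.293. *Clcf1* had 94.5 to 125 against 119 to 190, with a log2 fold change of −0.44 (adjusted p 0.133 by edgeR, and 0.00793 to 0.313 over the alternatives). *Il6ra* had 1036, 1179, 857 and 1044 against 784 to 1002, with a log2 fold change of 0.20 (adjusted p 0.155 by edgeR, and 0.0106 to 0.454 over the alternatives). *Il6st* had 561, 628, 582 and 580 against 510 to 564, with a log2 fold change of 0.13 (adjusted p 0.797 by edgeR, and 0.0468 to 0.884 over the alternatives). *Stat3* had 8425, 9205, 8941 and 9224 against 9006 to 9693, with a log2 fold change of −0.08 (adjusted p 0.39 by edgeR, and 0.0482 to 0.731 over the alternatives). For each of these 5 genes at least 1 loaded library lay within the unloaded range, and the lowest adjusted p was the value without untreated *Mcu*-/- replicate 4.

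**Figure D2:**
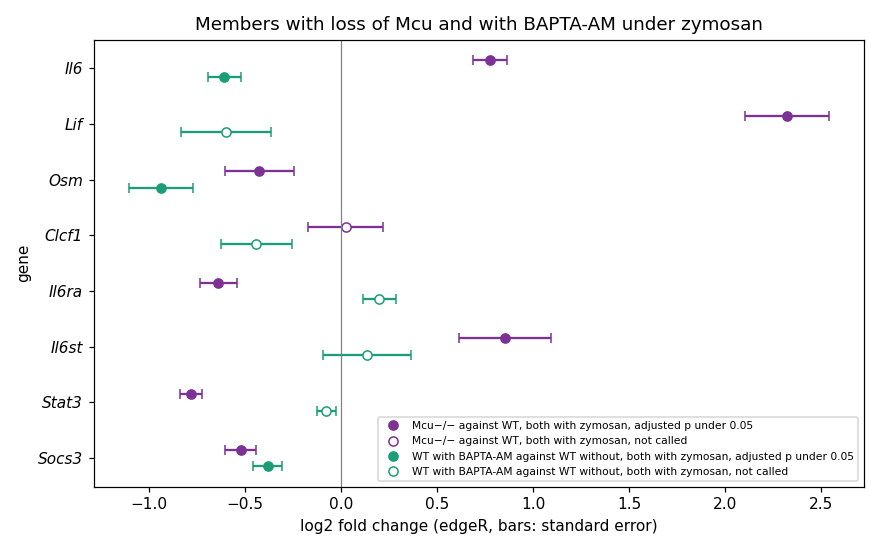
Log2 fold changes of the 8 members under zymosan, with loss of *Mcu* and with BAPTA-AM, each against the same 5 WT zymosan libraries, with bars for the SE. Filled points passed an edgeR adjusted p of 0.05 and open points did not; *Il6* lies at 0.77 with loss of *Mcu* and −0.61 with BAPTA-AM, and *Socs3* at −0.52 and −0.38.

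Set side by side, the log2 fold changes with loss of *Mcu* and with BAPTA-AM were 0.77 and −0.61 for *Il6*, −0.43 and −0.94 for *Osm*, and −0.52 and −0.38 for *Socs3*, the 3 members called in both. *Il6* was thus called in opposite directions, and *Osm* and *Socs3* in the same direction. Without untreated *Mcu*-/- replicate 4, 7 members were called in both, with *Il6*, *Lif* and *Il6ra* in opposite directions and the other 4 in the same direction. How many of all genes tested were called in both, and in which directions, was not counted. The comparisons also share the WT zymosan libraries, so these directions describe the members only. For *Stat3* the values were −0.78 and −0.08, for *Il6ra* −0.64 and 0.20, for *Il6st* 0.85 and 0.13, and for *Lif* 2.32 and −0.60. BAPTA-AM loaded macrophages with zymosan still differed from WT untreated ones in all 8 members, 7 higher and *Il6ra* lower, beside 66.0% of all genes tested. Against WT untreated the loaded macrophages had log2 fold changes of 9.46 for *Il6*, 1.20 for *Osm*, 2.38 for *Clcf1*, −1.21 for *Il6ra*, 0.79 for *Il6st*, 1.41 for *Stat3* and 6.27 for *Socs3*. The *Lif* ratio was 52.3 (exact 95% counting interval 20.1 to 194, from 172 and 4 counts). This comparison shares the WT untreated libraries with that of unloaded macrophages.

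Without zymosan, 1 of the 8 members was called between *Mcu*-/- and WT macrophages, beside 0.350% of all genes tested, and also 1 without replicate 4, beside 3.35%. The member was *Il6*, with 13.0, 10.99, 15.8 and 12.3 normalized counts in *Mcu*-/- against 0.879, 2.62, 7.06 and 6.94 in WT. All 4 *Mcu*-/- libraries lay above the WT ones, at 15 to 21 counts against 1 to 8. The log2 fold change was 1.60 (SE 0.28, adjusted p 0.0124 by edgeR) and the pooled ratio 3.09 (exact 95% counting interval 1.82 to 5.53). An exact permutation test, two-sided, returned p = 0.0286, the smallest value possible with 4 against 4 libraries. Without replicate 4 the log2 fold change was 1.62 and the pooled ratio 3.15 (1.81 to 5.71), and over the alternatives the edgeR adjusted p ran from 0.00405 to 0.755, the highest in a fit of these groups alone. The call was also lost without WT untreated replicate 1 (log2 fold change 1.24, adjusted p = 0.116) or replicate 2 (1.42, adjusted p = 0.0732), and with the replicate number as a replicate block (adjusted p = 0.119). At these counts *Il6* RNA in untreated macrophages was a small fraction of its level with zymosan in either genotype.

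*Il6st* had 362, 383, 386 and 1060 normalized counts in untreated *Mcu*-/- macrophages against 320 to 362 in WT, so the mean of 548 ± 342 (n = 4) rested on replicate 4. The log2 fold change was 0.69 with that library and 0.15 without it, neither called (adjusted p 0.229 and 0.214 by edgeR, and 0.0913 to 0.755 over the alternatives). *Lif* had 1.52, 2.93, 0 and 4.91 normalized counts, with the highest in replicate 4, and its pooled ratio to WT was 2.46 (exact 95% counting interval 0.744 to 10.5, from 12 and 4 counts), a range that includes no difference. Without replicate 4 the ratio was 1.60 (0.380 to 7.72, from 6 and 4 counts). The remaining log2 fold changes with and without replicate 4 were 0.21 and −0.04 for *Osm*, −0.16 and 0.05 for *Clcf1*, and 0.07 and −0.06 for *Socs3*, so their direction turned with that library. *Osm* had 86.9, 96.0, 60.2 and 142 normalized counts, *Clcf1* 21.3, 18.3, 23.3 and 8.999, and *Socs3* 198, 209, 173 and 270. *Il6ra* had 2410, 2214, 2335 and 1873, and *Stat3* 3298, 3091, 3193 and 2678, with replicate 4 the lowest for both. Their log2 fold changes with and without it were −0.11 and −0.04 for *Il6ra* and −0.14 and −0.08 for *Stat3*. None of these 5 genes was called.

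Within *Mcu*-/- macrophages zymosan changed all 8 members, 7 higher and *Il6ra* lower, beside 73.8% of all genes tested, and all 8 without replicate 4, beside 81.5%. The pooled ratios were 615 for *Il6* (exact 95% counting interval 485 to 792) and 161 for *Lif* (91.6 to 312, from 980 and 12 counts). Without replicate 4, which holds 6 of the 12 untreated counts of *Lif*, the ratios were 604 for *Il6* (462 to 807) and 246 for *Lif* (113 to 672). The log2 fold changes with and without replicate 4 were 1.51 and 1.75 for *Osm*, 3.00 and 2.79 for *Clcf1*, −1.94 and −2.01 for *Il6ra*, 0.84 and 0.78 for *Stat3*, and 6.06 and 6.19 for *Socs3*, with no overlap between libraries. For *Il6st* the log2 fold change was 0.82 with that library (adjusted p 0.00682 by edgeR) and 1.35 without it, its adjusted p ran from 2.19e-22 to 0.091 over the alternatives, and the 1060 normalized counts of replicate 4 lay above all 3 zymosan libraries.

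The difference between the zymosan responses of the genotypes was tested directly. Of the 8 members 3 had a called difference, all in the direction of a lower value in *Mcu*-/- macrophages, beside 35.2% of all genes tested. The response, as a log2 fold change, differed by −0.65 for *Stat3* (SE 0.08, adjusted p 7.31e-06 by edgeR), −0.60 for *Socs3* (SE 0.12, adjusted p 0.00127 by edgeR) and −0.53 for *Il6ra* (SE 0.13, adjusted p 0.00462 by edgeR). Without replicate 4 these differences were −0.71, −0.46 and −0.60. By these values *Stat3* and *Socs3* rose less, and *Il6ra* fell further, in *Mcu*-/- than in WT macrophages. Whether the untreated and zymosan *Mcu*-/- libraries differ in more than zymosan was not tested. A different starting level therefore cannot be told apart from a different response. Without replicate 4, 4 members were called, beside 60.3%, with *Il6st* added at a difference of 0.70 against 0.16 with that library (adjusted p 1.99e-09 to 0.991 over the alternatives). For *Il6* the difference was −0.82 (SE 0.30, adjusted p 0.0527 by edgeR, and 0.02 to 0.319 over the alternatives), and −0.85 without replicate 4, against a log2 fold change between the zymosan groups of 0.77. The call was gained without WT untreated replicate 3 (0.02) or 4 (0.0287) or untreated *Mcu*-/- replicate 2 (0.0468). The untreated levels of *Il6* that enter this difference were 13.0 ± 2.04 in *Mcu*-/- and 4.38 ± 3.11 in WT macrophages. For *Lif* the difference with and without replicate 4 was 1.13 and 1.71, a description with no test, as no untreated library held more than 6 counts. For *Osm* and *Clcf1* it was not called with or without replicate 4, at −0.63 and −0.39, and 0.18 and −0.02. The adjusted p of *Osm* was 0.0693 by edgeR and ran from 0.0133 to 0.137 over the alternatives, and the difference was called by DESeq2 (0.0487) and by edgeR without WT untreated replicate 2 (0.0436) or untreated *Mcu*-/- replicate 3 (0.0133).

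The wider pathway was described with a list of 57 other genes by role, of which 47 passed the filter on low counts. Those not tested included *Il11*, *Cntf*, *Ctf1*, *Ctf2*, *Il31*, *Cntfr*, *Il31ra*, *Socs2* and *Lrg1*, each with at most 7 counts in any library. In WT macrophages zymosan changed 41 of the 47, 35 higher and 6 lower, a share of 87.2% beside 69.1% of all genes tested, with a median log2 fold change of 1.06 against −0.04 over all genes tested. *Il27*, a subunit of the related cytokine IL-27, rose by 7.23 and the inhibitors *Socs1* by 7.43 and *Cish* by 5.42. The kinase gene *Jak2* rose by 2.42, the STAT3 target *Pim1* by 6.25 and *Arid5a*, whose product protects *Il6* mRNA, by 5.28. *Pias3*, which encodes an inhibitor of STAT3, fell by 1.23. Within *Mcu*-/- macrophages 44 of the 47 were called, 33 higher and 11 lower, a share of 93.6% beside 73.8%, and 46 without replicate 4, 97.9% beside 81.5%. In BAPTA-AM loaded against WT untreated macrophages 42 were called, 35 higher and 7 lower, a share of 89.4% beside 66.0%.

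With loss of *Mcu* under zymosan, 30 of the 47 pathway genes were called, 11 higher and 19 lower, a share of 63.8% beside 62.1% of all genes tested. Without untreated *Mcu*-/- replicate 4 the count was 37, 16 higher and 21 lower, a share of 78.7% beside 70.1%. Among partner receptors, *Lifr* had 61.5 ± 8.02 normalized counts (n = 3) against 121 ± 16.6 (n = 5), a log2 fold change of −0.98, and *Il11ra1* fell by 1.40. Untreated *Mcu*-/- replicate 4 had levels like those of the *Mcu*-/- zymosan libraries for both genes. It had 65.4 normalized counts of *Lifr*, against 54.8 to 70.4 in those libraries and 188 to 233 in untreated replicates 1 to 3, and 181 of *Il11ra1*, against 159 to 204 and 315 to 389.5. *Osmr* had 12 to 15 counts in the *Mcu*-/- zymosan libraries and at most 9 in any other. It passed the filter on low counts through that group alone, so its call, which enters the counts of the list, is not read as a result. Of the ligand genes *Ebi3*, which encodes the other subunit of IL-27, fell by 0.83 (SE 0.15, adjusted p 0.000156 by edgeR), while *Il27* rose by 0.84. Of the transducers, 2 of 11 were higher and 4 lower, a share of 54.5%, with *Stat5a* at −0.66 and *Sos1* at −0.98 among the lower ones. The libraries with more *Lif* thus had less *Lifr*.

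Of 11 tested STAT3 targets, many of which NF-κB also drives, 2 were higher and 5 lower with loss of *Mcu*, a share of 63.6% beside 62.1% of all genes tested. *Saa3*, an acute phase gene, had 755 ± 34.99 normalized counts (n = 3) against 5418 ± 745 (n = 5), a log2 fold change of −2.84 (SE 0.22, adjusted p 1.13e-08 by edgeR). *Il4ra* (−1.27) and *Bcl3* (−1.12) were also lower, while *Il10* (0.36) and *Bcl6* (0.54) were higher. Untreated *Mcu*-/- replicate 4 had 2412 normalized counts of *Bcl6*, against 1906 to 2050.01 in the *Mcu*-/- zymosan libraries and 1028 to 1139 in untreated replicates 1 to 3. Of 6 transcription factors that act on *Il6*, 3 were higher and 2 lower, a share of 83.3%. The NF-κB subunit genes *Rela* (0.38), *Rel* (0.27) and *Nfkb1* (0.21) were the higher ones, and *Cebpb* (−1.28) and *Cebpd* (−1.89) the lower ones. Replicate 4 had 969 normalized counts of *Cebpd*, between the 649 to 659 of the *Mcu*-/- zymosan libraries and the 2154 to 2251 of replicates 1 to 3, and for *Cebpb* it had 4815, above both groups. Of 5 regulators of *Il6* mRNA, *Zc3h12a*, whose product degrades it, fell by 0.74, from 5025 to 3009 normalized counts. *Arid5a* also fell, by 0.56, and *Rc3h1*, another gene whose product promotes decay, rose by 0.38. These 3 called genes make a share of 60%, and all 5 were called without untreated *Mcu*-/- replicate 4, where 70.1% of all genes tested were. Of 8 inhibitors and receptor sheddases 4 were called, a share of 50%, with *Adam10* higher at 0.56 and *Ptpn6* (−0.50), *Adam17* (−0.18) and *Ptpn2* (−0.16) lower.

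With BAPTA-AM under zymosan, 15 of the 47 were called, 2 higher and 13 lower, a share of 31.9% beside 12.8% of all genes, with a median log2 fold change of −0.10 against 0.00. Without untreated *Mcu*-/- replicate 4 the count was 29, 3 higher and 26 lower, a share of 61.7% beside 31.8%. The lower genes included *Saa3* (−0.90), *Cish* (−0.82), *Nfil3* (−0.80), *Gab1* (−0.64), *Il27* (−0.57), *Il4ra* (−0.55), *Jak2* (−0.43), *Nfkbiz* (−0.35) and *Mcl1* (−0.32). STAT3 targets had the most calls of the roles, with 6 of 11 called, 1 of them higher, a share of 54.5%. Of 4 partner receptors edgeR called 0, with 0 at an unadjusted p under 0.05 and 0 by DESeq2. Of 5 regulators of *Il6* mRNA edgeR called 0, with 2 at an unadjusted p under 0.05 and 0 by DESeq2, and 3 without that replicate. *Il27* (0.84 and −0.57) and *Rel* (0.27 and −0.16) were called higher with loss of *Mcu* and lower with BAPTA-AM, as *Il6* was, and *Bcl2l1* (−0.32 and 0.28) the reverse. They were 3 of 9 pathway genes called in both comparisons, against 8 of 25 in opposite directions without that replicate. The same count over all genes tested was not made, so these counts describe the list only. The calls with BAPTA-AM were lost under 18 alternatives for *Gab1*, 6 for *Nfkbiz* and 3 for *Rel*.

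Without zymosan edgeR called 0 of the 47 between the genotypes, beside 0.350% of all genes tested, with 13 at an unadjusted p under 0.05 and 2 by DESeq2. Without replicate 4 it called 9, 2 higher and 7 lower, a share of 19.1% beside 3.35%. The zymosan responses of the genotypes differed for 24, 8 with a higher and 16 with a lower value in *Mcu*-/- macrophages, a share of 51.1% beside 35.2% of all genes tested. Without replicate 4 they differed for 36, 16 higher and 20 lower, a share of 76.6% beside 60.3%. The differences with and without replicate 4 were −2.22 and −2.46 for *Saa3*, −1.20 and −1.21 for *Il4ra*, −1.41 and −1.11 for *Cebpb*, and −1.62 and −1.83 for *Cebpd*, genes that were also lower in *Mcu*-/- zymosan macrophages. For *Il10* they were 0.81 and 0.66.

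The genes whose pattern over the 20 libraries was most like that of each member were found by Pearson's r of log2 values among genes of at least 10 CPM. The libraries fall into treatment groups, so these values describe the shared steps between groups. *Il6* was closest to *Il27* (r = 0.999), *Anxa7* (0.998) and *Nos2* (0.997). *Lif* was closest to *Trps1* (0.994), *Pik3ca* (0.992) and *Gprc5c* (0.99), and *Osm* to *Mcl1* (0.975). *Il6st* was closest to *Rnh1* (0.991), *Il6ra* to *Id2* (0.99), *Stat3* to *Clcn5*, *Setd1b* and *Rasa4* (0.996 each) and *Socs3* to *Cd44*, *Rnf2* and *Dusp2* (0.999 each). *Clcf1* was under the minimum level and was not compared.

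The members lie on 5 chromosomes of mm10, by GENCODE M21. *Osm* (ENSMUSG00000058755, chr11:4236420-4241026) and *Lif* (ENSMUSG00000034394, chr11:4257557-4272514) are neighbours on the plus strand, 16.5 kb apart with 0 annotated genes between them. With loss of *Mcu* under zymosan these neighbours moved in opposite directions, at log2 fold changes of −0.43 and 2.32. The fall of *Osm* was called narrowly, at an edgeR adjusted p of 0.0475 that ran up to 0.142 over the alternatives. *Il6* (ENSMUSG00000025746) lies at chr5:30013114-30019981, *Il6st* (ENSMUSG00000021756) at chr13:112464070-112510086 and *Clcf1* (ENSMUSG00000040663) at chr19:4214238-4223490, all on the plus strand. *Il6ra* (ENSMUSG00000027947) at chr3:89864059-89913196, *Stat3* (ENSMUSG00000004040) at chr11:100885098-100939540 and *Socs3* (ENSMUSG00000053113) at chr11:117966079-117970047 are on the minus strand. The end of *Stat3* overlaps the end of *Stat5a* on the other strand, *Clcf1* overlaps the coding gene AC109138.7 on the same strand, and the start of *Il6ra* overlaps the antisense gene Gm42809. Of these overlapping genes only *Stat5a* was among the genes counted, and AC109138.7 and Gm42809 were not. The strand setting of the counting is not given in the sources used here. How reads in these overlaps were counted is therefore not known, and the counts of the 3 members are uncertain to that extent.

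Promoters were read from RefSeq (GRCm38.p6) as the 250 bases before the RefSeq start, where 6 of the 8 members had an entry and *Osm* and *Clcf1* did not. The letters searched on both strands were GGANTTTCC (κB type, in 1.07% of 32851 promoters), TTCNNNGAA (STAT type, 7.02%), TGANTCA (AP-1 type, 6.75%) and TTGCNNAA (C/EBP type, 9.56%). The *Il6* promoter (chr5:30012864-30013113, plus strand) held GGATTTTCC at 43 to 35 bases before the start, TTGTGCAA, a C/EBP type match read on the other strand, at 128 to 121, and TGAGTCA at 249 to 243. The *Lif* promoter (chr11:4257318-4257567, plus strand) held TGACTCA at 228 to 222, and the *Socs3* promoter (chr11:117969367-117969616, minus strand) held TTCTTAGAA at 154 to 146. By GENCODE the *Socs3* window lies inside the gene, upstream of the start of its coding transcript at 117969186, and 77 of its bases are in exons of other transcripts, while 11 bases of the *Lif* window are in an exon. The *Il6ra* (chr3:89913197-89913446, minus strand), *Il6st* and *Stat3* promoters held none of these letters in this window. Matches did not overlap each other, and a match describes letters only. Shown 5′ to 3′ are the promoters of the ligand genes that were higher with loss of *Mcu*, of the inhibitor gene that was lower and of the receptor gene that zymosan lowered, with matched letters in capitals.
Il6: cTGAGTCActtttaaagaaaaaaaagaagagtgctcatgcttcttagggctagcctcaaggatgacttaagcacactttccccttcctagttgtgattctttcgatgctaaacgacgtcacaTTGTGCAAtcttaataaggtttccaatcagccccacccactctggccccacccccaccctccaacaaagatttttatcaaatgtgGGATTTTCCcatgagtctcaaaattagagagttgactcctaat
Lif: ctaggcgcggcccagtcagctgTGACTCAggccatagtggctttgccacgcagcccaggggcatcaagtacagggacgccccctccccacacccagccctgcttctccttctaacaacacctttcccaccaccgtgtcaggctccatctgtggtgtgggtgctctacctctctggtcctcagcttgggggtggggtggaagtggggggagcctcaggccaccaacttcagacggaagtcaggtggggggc
Socs3: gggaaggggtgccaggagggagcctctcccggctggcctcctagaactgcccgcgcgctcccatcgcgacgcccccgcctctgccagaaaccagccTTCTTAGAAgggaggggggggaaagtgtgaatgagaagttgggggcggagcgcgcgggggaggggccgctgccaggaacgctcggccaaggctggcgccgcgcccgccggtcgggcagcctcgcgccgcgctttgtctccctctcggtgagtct
Il6ra: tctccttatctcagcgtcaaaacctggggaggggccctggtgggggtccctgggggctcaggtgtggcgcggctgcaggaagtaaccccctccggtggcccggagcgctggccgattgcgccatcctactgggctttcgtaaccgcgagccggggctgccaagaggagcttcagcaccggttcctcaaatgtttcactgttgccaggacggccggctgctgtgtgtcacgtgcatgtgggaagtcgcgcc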

How the data were processed

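RNA was counted in 20 libraries of 5 groups. The authors removed adaptors with cutadapt, mapped reads to mm10 with STAR and deposited counts per gene from HTSeq, without normalization, and their own tests used DESeq2. Columns of the *Mcu*-/- zymosan libraries are numbered 3, 4 and 5 and their labels 1 to 3, and column numbers are used here.

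All libraries entered 1 quasi-likelihood fit in edgeR 4.0.16 (R 4.3.3) with 1 coefficient per group, TMM scaling and filterByExpr, and p-values were adjusted by Benjamini-Hochberg over 11707 genes at a threshold of 0.05. The fit was tested on simulated data. SE is the absolute log2 fold change over the square root of F. Single genes were compared by exact two-sided permutation tests on log2(normalized count + 0.5). Ratios at low counts have exact 95% counting intervals from scipy 1.17.1. Per kb values use merged exons of GENCODE M21, which holds 21710 of the 21938 gene symbols counted. Named genes are the 8 members and, from each role of the pathway list, at most 4 called genes of the largest change per comparison, with those called in opposite directions by *Mcu* loss and BAPTA-AM. *Bcl6*, *Nfkb1* and the value of *Il10* with loss of *Mcu* were named after their values were seen. The members, lists and markers were chosen with earlier results of these data known. Alternatives were DESeq2 1.42.0 size factors and Wald test, no filter, the groups compared alone, a replicate block and leaving out each library. The report gives values without untreated *Mcu*-/- replicate 4 as well, and for the pathway list and the pooled ratios this was added after seeing the data. Some genes of the pathway list enter its counts and are not reported here by name.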

Additional observations from a re-analysis of the deposited data

Results flagged for a closer look

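Of 40 groups of 4 or 5 libraries tested for a library far from the others of its group, 3 were past Dixon's limit, where chance gives about 1 in 20. *Il6st* had 1060 normalized counts in untreated *Mcu*-/- replicate 4 against 362 to 386 in replicates 1 to 3. *Lif* had 1.16 normalized counts in WT untreated replicate 4, which is 1 count as in the other 3 libraries of that group and differs through library size. *Cx3cr1* had 16.0 normalized counts in WT zymosan replicate 2 against 7.05 to 9.46 in the other 4.

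The log2 fold change with zymosan differed between the genotypes, by the test of the difference itself, for 3 members and for *Cx3cr1*. The value in *Mcu*-/- minus that in WT was −0.53 for *Il6ra*, −0.65 for *Stat3*, −0.60 for *Socs3* and 2.92 for *Cx3cr1*, which averaged 392 and 10.1 normalized counts in WT without and with zymosan and 208 and 41.3 in *Mcu*-/-.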

How the results depend on the processing

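Counts of *Lif* and *Il6* in untreated macrophages limit their ratios to the counting intervals given, and *Osmr* rests on at most 15 counts per library. Zymosan against untreated in WT, with or without BAPTA-AM, called 8 members under each alternative run. Of 1375 alternative values of the members' log2 fold changes, 1329 kept their direction and side of the threshold, 19 lost the call, 18 gained it and 9, none of them called, changed sign. The cause of these changes was not tested, beyond the spread that untreated *Mcu*-/- replicate 4 adds. Dropping that replicate for the pathway list and the pooled ratios, and the alternatives for *Mcu*, *Cx3cr1* and the named pathway genes, were chosen after seeing the data. With these genes added, 4810 of 4921 values kept their direction and call, 84 lost the call, 18 gained it and 9 changed sign. Of the lost calls 65 were of genes outside the members.

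For BAPTA-AM under zymosan, the fit of the groups alone called 7 members and 3529 genes, against 3 and 1494, and leaving out each library gave 3 to 8 members and 1036 to 3712 genes, the highest without untreated *Mcu*-/- replicate 4. For untreated *Mcu*-/- against WT, with 1 member and 41 genes called, the groups alone gave 0 and 5, DESeq2's Wald test called 112 genes, and leaving out each library gave 0 to 1 members and 22 to 391 genes. For the difference of the zymosan responses, 4122 genes became 3414 to 7039 with each library left out. *Il6st* within *Mcu*-/- lost its call in the groups alone, so 7 members were called there against 8.

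Signs changed when single libraries were removed. For *Clcf1* the log2 fold change ran from −0.0401 to 0.143 with loss of *Mcu* under zymosan, from −0.305 to 0.0468 untreated, and from −0.0203 to 0.328 for the difference of responses. Untreated, that of *Osm* ran from −0.0411 to 0.377 and that of *Socs3* from −0.0628 to 0.158.

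With the replicate number as a replicate block, 879 genes were called for BAPTA-AM under zymosan with 3 members, and 22 genes and 0 members for untreated *Mcu*-/- against WT, where *Il6* had an adjusted p of 0.119. The numbers did not pair the libraries: over 24 same-numbered pairs, r of their deviations from group means ran from −0.06 to 0.07, and 0 were over 0.1. No paired analysis was possible because column and label numbers differ for the *Mcu*-/- zymosan libraries, in the 3 comparisons that hold them.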
